A study of Mus musculus with 4 samples.

Results

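The cells described here are the MHC class II-high myeloid cells of malignant pleural effusions in mice, a set built to hold both subsets of conventional dendritic cells. They came from single-cell RNA sequencing of C57BL/6 mice carrying Lewis lung carcinoma (LLC) cells, a mouse lung cancer line that here fills the pleural space with tumour fluid. A barcode was a member if it passed 3 general filters (at least 1000 unique molecular identifiers, or UMIs, at least 200 genes, and at most 10% mitochondrial UMIs), if H2-Aa, H2-Ab1 and H2-Eb1 together reached 60 UMIs per 10000, if it had no UMI of the B cell genes Cd79a and Ms4a1, and if it had at most 1 UMI of Cd3d, Cd3e and Cd3g. The members were thus chosen by their measured levels of these genes. The rule found 610 members among 13578 kept cells. Of these, 80 had at least 1 UMI of Xcr1 or Clec9a and are called cDC1, and the other 530 are called the rest.

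Every mouse carried an LLC effusion, and all 4 treatments went into the pleural space on day 11. They were LNP-cGAMP (1 µg, lipid nanoparticles loaded with cGAMP), an antibody to PD-L1 (clone 10F.9G2, 30 µg), both together (called the combination), or PBS as control. Fluid was taken on day 13, red cells were lysed, and the cells of 3 mice were pooled into 1 library per treatment. Mouse-to-mouse spread was therefore not measured: each value below belongs to 1 library, no test between treatments is possible, and all intervals are 95% intervals of counting error only. No mouse without treatment or without tumour was among the samples used here. The labels give no ages.

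Conventional dendritic cells take up tumour material, display it to T cells and carry it to lymph nodes. The cDC1 subset depends on the factors IRF8 and BATF3, takes up dead cells through the receptor encoded by Clec9a and presents their proteins on MHC class I to CD8+ T cells. The cDC2 subset presents mainly on MHC class II to CD4+ T cells. cGAMP is the second messenger that the DNA sensor cGAS makes, and it switches on STING, whose signal leads to type I interferons and, through their receptor, to the interferon-stimulated genes. PD-L1, encoded by Cd274, is the ligand that restrains T cells through PD-1, and dendritic cells carry it too.

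The label holds for some of the members. Flt3, the receptor for the growth factor of dendritic cell progenitors, and Zbtb46, a factor largely restricted to conventional dendritic cells among immune cells, were not used by the rule. At least 1 UMI of either was found in 3 of 8 cDC1 with LNP-cGAMP, 19 of 29 with anti-PD-L1, 16 of 20 with the combination and 19 of 23 with PBS. The rest fell into a low and a high range of the complement genes C1qa, C1qb and C1qc, which tissue macrophages express: 230 cells were below 5 summed UMIs per 10000, 33 lay between 5 and 10, 21 between 10 and 20, 32 between 20 and 40, and 214 above 40. A limit of 10, set after these values were seen, gave 263 C1q-low and 267 C1q-high cells. Among C1q-low cells Flt3 or Zbtb46 was found in 20 of 43 (LNP-cGAMP), 23 of 82 (anti-PD-L1), 19 of 52 (combination) and 45 of 86 (PBS). Among C1q-high cells it was found in 1 of 22, 3 of 93, 3 of 60 and 3 of 92 in the same order. Neutrophil-marker cells, which should lack both genes but are far shallower, had a UMI in 2 of 984, 2 of 897, 0 of 598 and 3 of 815.

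The C1q-high cells carried macrophage genes at high level, C1q genes among them by the choice of the limit. C1qa reached 3447 CPM (a share of the UMIs, where 100 CPM equals 1 UMI per 10000) with LNP-cGAMP, 2857 with anti-PD-L1, 3408 with the combination and 2939 with PBS. H2-Oa, a chaperone of peptide loading found mainly in B cells and dendritic cells, was at 0, 9.24, 14.1 and 16.8 CPM in C1q-high cells in that order, and at 119, 152, 209 and 211 CPM in C1q-low cells. A list of macrophage genes summed to between 12693 and 15871 CPM in the C1q-high cells, between 1458 and 1798 CPM in the C1q-low cells and between 1026 and 2922 CPM in the cDC1. That list includes the C1q genes that set the limit. At least 1.5-fold in all 4 libraries, 193 of 3839 measured genes (5.03%) were higher in C1q-high than in C1q-low cells and 213 (5.55%) were lower, in part by the choice of the limit. Flt3, Zbtb46 and H2-Oa did not set the limit, and their low levels go against the name dendritic cell for the C1q-high cells. These cells are called only C1q-high below. Values of the members with no group of cells named are over all members of a library, C1q-high cells included.

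**Figure D1:**
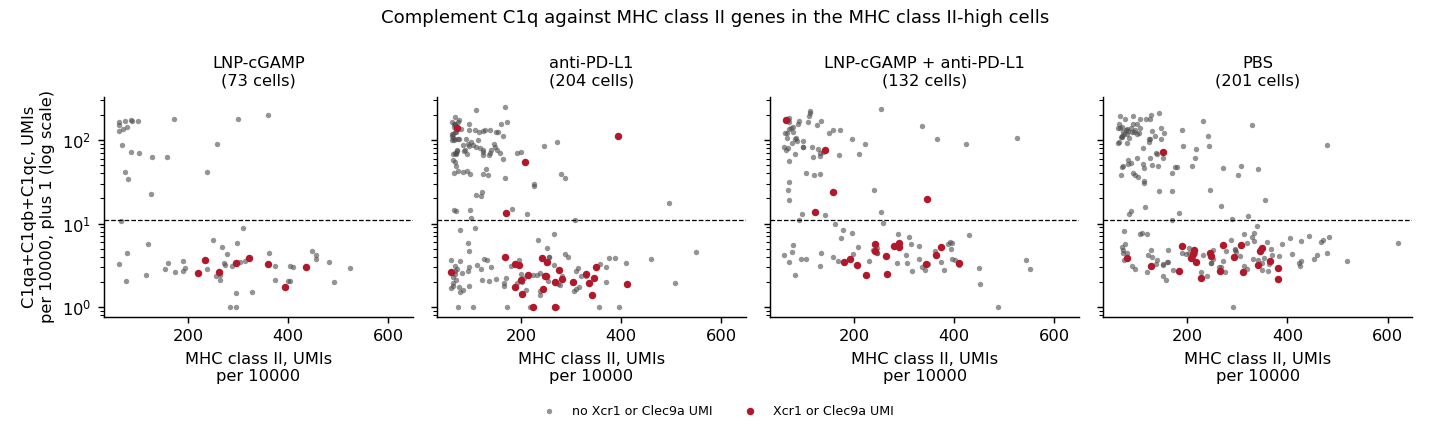
Summed C1qa, C1qb and C1qc plus 1 (vertical, log axis) against summed H2-Aa, H2-Ab1 and H2-Eb1 (horizontal), both in UMIs per 10000, with a point per member and a panel per library; red points are cDC1 and the dashed line is the C1q limit of 10. The grey points of the rest fall into a low and a high range of C1q, and those in the high range have lower MHC class II sums, with medians between 87.7 and 114 for the C1q-high cells of the 4 libraries.

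The MHC class II sum that chose the members was lowest in the C1q-high cells, as a description, while cDC1 and C1q-low cells had no fixed order. Its median per 10000 in cDC1 was 309 (LNP-cGAMP), 247 (anti-PD-L1), 252 (combination) and 247 (PBS), and in C1q-low cells 283, 204, 304 and 276. In C1q-high cells it was 87.7, 99.1, 106 and 114. Just inside the limit, 64 members lay between 60 and 70 per 10000, and 49 of them were C1q-high; just outside, 107 cells lay between 50 and 60. The rule on B cell genes removed 76 cells and the rule on T cell genes 26. Of the 80 cDC1, 33 rested on a single UMI of Xcr1 and Clec9a, and 10 had C1q above the limit. These 10 were spread unevenly, with 0 of 8 (LNP-cGAMP), 4 of 29 (anti-PD-L1), 5 of 20 (combination) and 1 of 23 (PBS). They stay among the cDC1 below, and their part in differences of cDC1 between libraries was not tested.

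**Figure D2:**
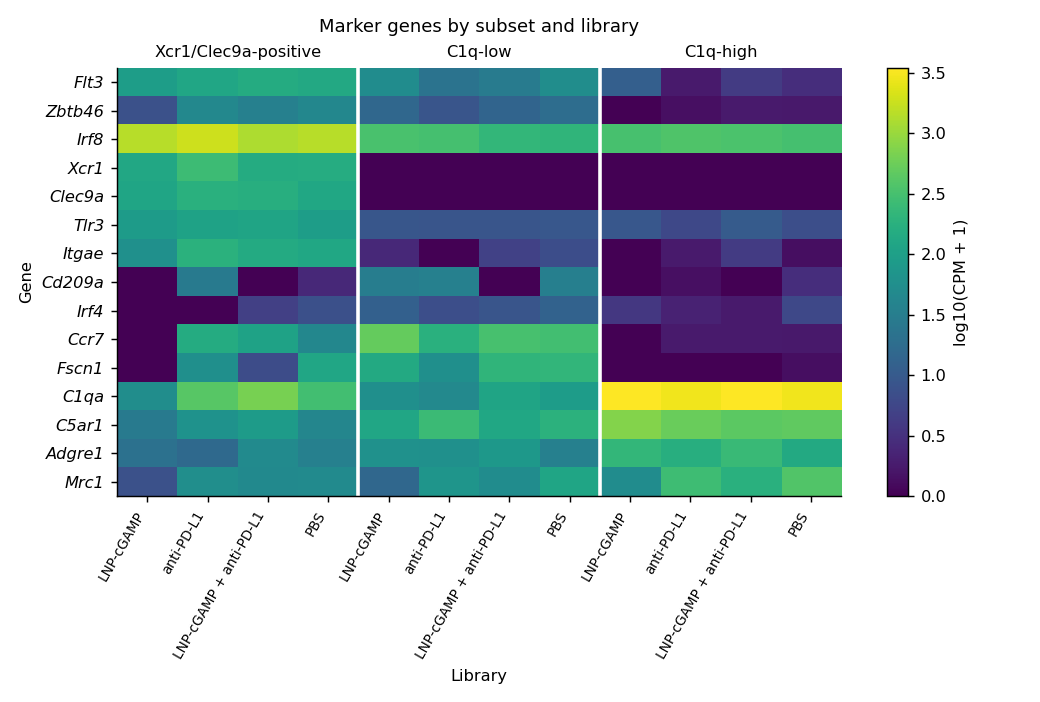
Levels of 15 genes as log10(CPM + 1) in cDC1 (Xcr1/Clec9a-positive), C1q-low and C1q-high cells of each library. In the C1q-high columns Flt3 is at most 10.8 CPM and Zbtb46 under 1 CPM, and C1qa is high by the choice of the limit. Xcr1 and Clec9a, which define the cDC1, are 0 elsewhere by the rule.

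The cDC1 showed the wider cDC1 programme in all 4 libraries. Since 2 of the genes chose the cells, what follows is a description of both sides within each library. Irf8, the factor the subset depends on, stood at 1436, 1860, 1258 and 1420 CPM in cDC1 (LNP-cGAMP, anti-PD-L1, combination, PBS), against 330, 314, 218 and 207 CPM in C1q-low cells. Tlr3, the sensor of double-stranded RNA, stood at 86.0, 110.5, 117 and 91.9 CPM in cDC1. It was below 9 CPM in the C1q-low cells of every library. Here and below, a log2 ratio is taken on CPM + 10. Against all the rest, the log2 ratios of Itgae, which encodes the integrin CD103, were 2.66, 4.17, 3.53 and 3.46, those of Btla, an inhibitory receptor of the CD28 family, 2.86, 3.06, 2.97 and 3.01, and those of Wdfy4, needed for cross-presentation by cDC1, 2.11, 2.98, 2.73 and 2.64. Gcsam, which is best known from germinal centre B cells, gave 3.36, 3.71, 3.12 and 3.52. C5ar1, the receptor for complement C5a, was lower in cDC1, with log2 ratios of -3.34, -2.59, -1.77 and -2.89. A gene was measured if it had at least 20 UMIs over the libraries and at least 50 CPM in 1 of them; at least 1.5-fold in all 4 libraries, 130 of 3970 measured genes (3.27%) were higher in cDC1 than in the rest and 209 (5.26%) were lower. Against the C1q-low cells alone, 83 of 3935 (2.11%) were higher and 69 (1.75%) lower.

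The C1q-low cells were mixed as well. Cd209a, a lectin of cDC2 and monocyte-derived cells, was at 30.2 CPM in 1 of 43 C1q-low cells with LNP-cGAMP, at 33.8 CPM in 11 of 82 with anti-PD-L1, at 0 in the 52 with the combination and at 32.5 CPM in 18 of 86 with PBS. The whole LNP-cGAMP value thus came from 1 cell, and 0 of 52 leaves room for up to 4.73 CPM by its interval. A list of 19 cDC2 genes, Cd209a among them, summed to 11458, 9321, 11459 and 9585 CPM in C1q-low cells, in the same order. It summed to 4857, 4430, 3943 and 4089 CPM in C1q-high cells and to 11800.5, 4716, 4240 and 7077 CPM in cDC1. Cells with at least 8 UMIs of Ccr7, Fscn1, Cacnb3 and Il4i1, genes of mature dendritic cells on their way to lymph nodes, numbered 7, 6, 6 and 11 in C1q-low cells, 0, 3, 1 and 1 in cDC1 and 0 in C1q-high cells. That limit was set after the data were seen. Lists of T, NK, B, LLC, mast and red cell genes summed to at most 61.7 CPM over the members of any library. A list of neutrophil genes summed to 315 CPM (LNP-cGAMP), 696 (anti-PD-L1), 216 (combination) and 324 (PBS). A single combination cDC1 carried mesothelial genes, and 1 PBS member carried genes of plasmacytoid dendritic cells. No doublet caller was run, so the part of doublets was not tested.

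Members made up 1.91% (1.5 to 2.39%) of kept cells with LNP-cGAMP, 6.04% (5.26 to 6.89%) with anti-PD-L1, 3.72% (3.12 to 4.40%) with the combination and 7.13% (6.20 to 8.14%) with PBS. These are exact Clopper-Pearson intervals. Both libraries that received LNP-cGAMP held a smaller share than their counterparts without it: the combination less than anti-PD-L1, and LNP-cGAMP less than PBS, with intervals that do not overlap. The share of cDC1 was 0.209% (0.0902 to 0.411%) with LNP-cGAMP, 0.858% (0.576 to 1.23%) with anti-PD-L1, 0.564% (0.345 to 0.869%) with the combination and 0.815% (0.518 to 1.22%) with PBS, from 8, 29, 20 and 23 cells. For cDC1 the LNP-cGAMP interval ends below the PBS interval, while those of the combination and anti-PD-L1 overlap. The C1q-low cells stood at 1.12% (0.814 to 1.51%), 2.43% (1.93 to 3.00%), 1.47% (1.10 to 1.92%) and 3.05% (2.45 to 3.75%) of kept cells, again from LNP-cGAMP to PBS. The C1q-high cells stood at 0.574% (0.36 to 0.868%), 2.75% (2.23 to 3.36%), 1.69% (1.29 to 2.17%) and 3.26% (2.64 to 3.98%). These are shares, so fewer members and more of other cells cannot be told apart; neutrophil-marker cells alone took 25.7%, 26.5%, 16.9% and 28.9% of kept cells.

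**Figure D3:**
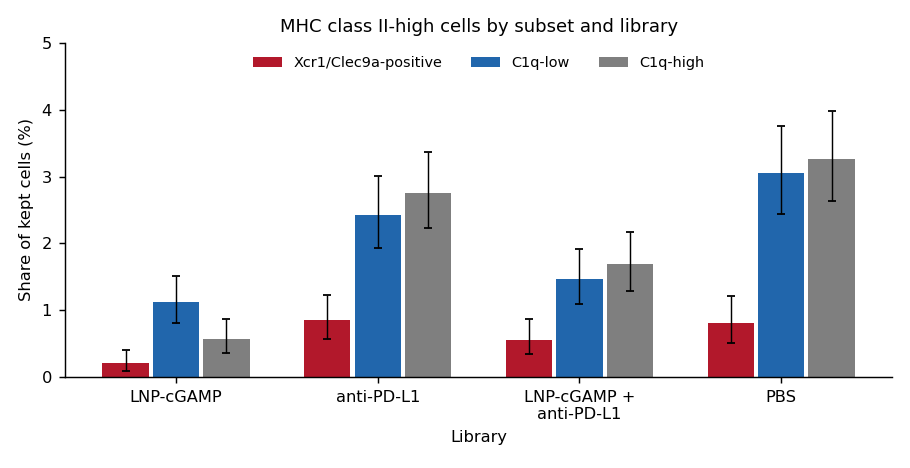
Share of kept cells, in percent, held by cDC1 (Xcr1/Clec9a-positive), C1q-low and C1q-high cells in each library, with exact 95% intervals of counting error. The LNP-cGAMP library is lowest in each group of cells, at 0.209%, 1.12% and 0.574%.

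Among the members, cDC1 were 11.0% with LNP-cGAMP, 14.2% with anti-PD-L1, 15.2% with the combination and 11.4% with PBS. Detection of 1 UMI grows with depth, so each member was also thinned to 3000 UMIs, which left out 1, 4, 4 and 2 members. The cDC1 share was then 5.56%, 9.00%, 9.38% and 5.03%, with intervals that overlap in all pairs. The C1q-high cells made up 30.1% of members with LNP-cGAMP and 45.6%, 45.5% and 45.8% with anti-PD-L1, the combination and PBS.

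The libraries differ in ways that bear on all comparisons. They held between 68828158 and 88855120 UMIs in all. The members numbered 73, 204, 132 and 201 with median UMIs of 15503, 20848.5, 17533 and 23056, and their summed UMIs were 1150848, 4700199, 2594174 and 5011512. No cell barcode was shared among members of different libraries. Members with UMIs of Y-linked genes and none of Xist numbered 58, 55, 13 and 171, and members with Xist and no Y-linked UMI numbered 0, 131, 87 and 0, so the pools with anti-PD-L1 held cells of both sexes, which was not seen in the others. Mitochondrial genes took 1.21% of the members' UMIs with LNP-cGAMP, and 2.96%, 2.50% and 3.20% in the other libraries. The share of free RNA, estimated as if all S100a8 and S100a9 of the members were free RNA, was 2.86%, 11.1%, 3.37% and 1.81%. It differed between cells of the same library. With anti-PD-L1 it was 1.38% in cDC1, 8.69% in C1q-low and 15.4% in C1q-high cells, and with PBS 0.684%, 3.99% and 0.712%. How much of it is free RNA was not tested. Whether sex, RNA quality or free RNA play a part in the results below was not tested, except where values are given.

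Most measured type I interferon response genes were higher with LNP-cGAMP. Of 49 measured genes of that list, 42 were at least 1.5-fold higher with LNP-cGAMP than with PBS and 0 lower, with a median log2 ratio of 1.01; over all 3336 measured genes, 410 (12.3%) were higher and 346 (10.4%) lower, with a median of 0.01. Isg15, a ubiquitin-like protein attached to other proteins in infected cells, stood at 1529 CPM with LNP-cGAMP, 561 with anti-PD-L1, 485 with the combination and 417 with PBS. Irf7, the factor that amplifies interferon production, stood at 1059, 415, 581 and 278 CPM. Both were highest with LNP-cGAMP alone, and its interval of the fold over PBS was 3.44 to 3.91 for Isg15 and 3.53 to 4.12 for Irf7. Isg20, an exonuclease against viral RNA, stood at 197, 30.8, 47.4 and 22.5 CPM, which is 8.75-fold (6.95 to 11.1) higher with LNP-cGAMP than with PBS. Usp18, which damps interferon receptor signalling, was 4.76-fold (3.90 to 5.82) higher, and Ifi27l2a, a mitochondrial interferon-induced protein, stood at 2517 CPM against 725 CPM with PBS. The 7 measured genes that did not pass 1.5-fold were Dhx58, Lgals3bp, Ifitm3, Parp12, Dtx3l, Eif2ak2 and Zbp1. Among them Dhx58, a partner of the RNA sensors, stood at 102 against 96.0 CPM (1.06-fold, 0.858 to 1.30), and Ifitm3, which blocks viral entry, at 8308 against 6407 CPM (1.30-fold, 1.27 to 1.33).

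The promoters of 3 genes of this list are shown, because their ratios were the highest among the listed genes whose promoter holds a classical interferon-stimulated response element. The stretch is the 250 bases before the first listed start in RefSeq, build GRCm38.p6, written 5′ to 3′ on the strand of the gene, and the capitals mark GAAANNGAAA, searched on both strands (its other strand reads TTTCNNTTTC). Ifit1bl1 and Ifit3b belong to the family of IFIT proteins, which bind foreign RNA, and Rsad2 encodes viperin, an enzyme that makes a chain-terminating nucleotide. The windows are chr19:34601969-34602218 on the minus strand for Ifit1bl1, chr19:34607707-34607956 on the plus strand for Ifit3b, and chr12:26456453-26456702 on the minus strand for Rsad2.
Ifit1bl1: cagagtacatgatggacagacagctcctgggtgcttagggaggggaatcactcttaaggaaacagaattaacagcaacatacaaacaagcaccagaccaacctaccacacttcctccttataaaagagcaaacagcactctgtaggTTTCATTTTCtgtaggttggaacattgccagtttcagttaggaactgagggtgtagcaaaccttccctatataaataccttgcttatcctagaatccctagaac
Ifit3b: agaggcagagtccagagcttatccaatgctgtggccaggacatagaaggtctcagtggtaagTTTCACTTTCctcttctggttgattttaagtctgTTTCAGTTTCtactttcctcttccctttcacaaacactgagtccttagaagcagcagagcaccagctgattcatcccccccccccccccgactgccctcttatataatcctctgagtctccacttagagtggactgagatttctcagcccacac
Rsad2: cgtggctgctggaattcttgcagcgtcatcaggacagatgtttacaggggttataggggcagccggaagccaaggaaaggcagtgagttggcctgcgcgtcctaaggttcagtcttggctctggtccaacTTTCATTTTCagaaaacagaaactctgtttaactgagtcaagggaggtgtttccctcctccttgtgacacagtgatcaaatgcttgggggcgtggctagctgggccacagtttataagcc
The motif lies 104 to 95 bases before the start of Ifit1bl1, at 188 to 179 and at 154 to 145 bases before the start of Ifit3b, and 120 to 111 bases before that of Rsad2. Of the 39 list genes matched to a promoter, 15 (38.46%) held it, against 821 of all 27025 promoters (3.038%). A match is a sequence found in a window, and no binding was measured here. Ifit1bl1 stood at 98.2 CPM with LNP-cGAMP, 14.0 with anti-PD-L1, 44.7 with the combination and 12.2 with PBS. Ifit3b stood at 62.6, 5.53, 15.8 and 4.99 CPM, and Rsad2 at 142, 41.1, 61.3 and 23.3 CPM. All 3 were highest with LNP-cGAMP and next highest with the combination, while anti-PD-L1 and PBS were close for Ifit1bl1 and Ifit3b; the intervals of the fold over PBS were 5.86 to 11.2, 7.86 to 20.6 and 4.76 to 7.76.

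The response was seen in each of the 3 groups of cells. In cDC1, 44 of 50 measured list genes were higher with LNP-cGAMP than with PBS and 0 lower (median log2 ratio 1.36), with 19.0% of all measured genes higher in these 8 against 23 cells. In C1q-low cells it was 39 of 49 (0.89), with 11.8% of all genes higher, and in C1q-high cells 32 of 47 (0.87), with 16.0%. Cell by cell, the summed list in cDC1 had a median of 316 UMIs per 10000 with LNP-cGAMP (lowest 199, highest 464), 134 with anti-PD-L1 (55.5 to 242), 123 with the combination (37.5 to 323) and 120 with PBS (31.5 to 211). Of the 8 cDC1 with LNP-cGAMP the lowest thus lay under the highest PBS cell, and the median far above it. In C1q-low cells the medians were 267, 188, 184 and 158, and in C1q-high cells 204, 155, 176 and 133. The difference was not particular to the members: in the kept cells outside them, 38 of 47 list genes were higher with LNP-cGAMP than with PBS (median 0.89), where 10.4% of all genes were.

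**Figure D4:**
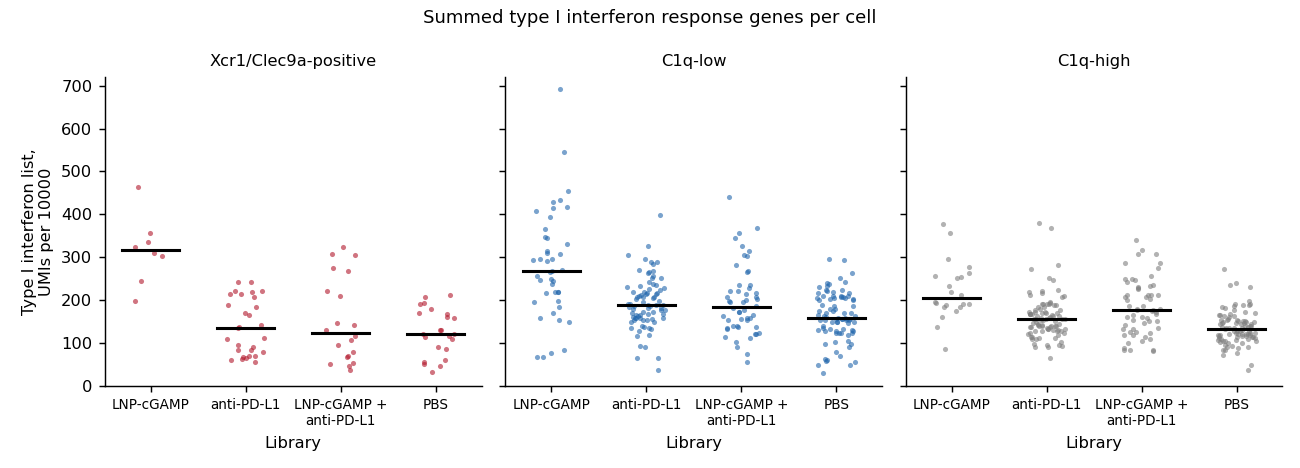
Summed type I interferon list, in UMIs per 10000, in each cDC1 (Xcr1/Clec9a-positive), C1q-low and C1q-high cell of the 4 libraries; each point is a cell and each bar a median. LNP-cGAMP has the highest median in each group of cells, 316, 267 and 204.

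When LNP-cGAMP was added to anti-PD-L1 the list moved little. Of the 49 genes, 2 were at least 1.5-fold higher with the combination than with anti-PD-L1 and 0 lower (median log2 ratio 0.03), against 75 of 3336 genes (2.25%) higher and 33 (0.989%) lower over all genes. The 2 were Ifit1bl1, at 3.18-fold (2.33 to 4.38), and Ifit3b, at 2.86-fold (1.71 to 4.87); Isg15 was at 485 against 561 CPM and Irf7 at 581 against 415 CPM. Against PBS, 10 of the 49 genes were higher with the combination and 0 lower (0.33), where 3.63% of all genes were higher and 2.13% lower. With anti-PD-L1 alone 2 of 49, Ifi44 and Rsad2, were higher than with PBS and 0 lower (0.25), against 1.41% of all genes higher. Split by group of cells, the combination against PBS gave 12 higher and 1 lower of 50 in cDC1, where 8.49% of all genes were higher and 6.12% lower. It gave 11 higher and 0 lower of 49 in C1q-low cells, with 4.87% and 4.66%, and 14 higher and 0 lower of 47 in C1q-high cells, with 5.06% and 3.65%. Against anti-PD-L1 the combination gave 8 higher and 1 lower in cDC1 (7.89% and 6.18% of all genes), 4 and 0 in C1q-low cells (4.96% and 3.92%), and 2 and 0 in C1q-high cells (3.08% and 1.87%). Anti-PD-L1 against PBS gave 3 of 50 higher in cDC1 (4.79% of all genes), 2 of 49 in C1q-low cells (2.57%) and 8 of 47 in C1q-high cells (1.84%), and 0 lower in each (4.49%, 2.66% and 1.41%). For anti-PD-L1 against PBS the cDC1 and C1q-low counts are thus near the shares of all genes. For the combination against PBS the counts of higher genes were above those shares in each group of cells. The 2 contrasts of LNP-cGAMP, on PBS and on anti-PD-L1, share no library, and their difference was not tested.

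Genes of MHC class I presentation, the route cDC1 use for CD8+ T cells, were higher with LNP-cGAMP in part. Of 21 measured, 11 were higher than with PBS and 2 lower (median log2 ratio 0.62), where 12.3% of all genes were higher and 10.4% lower. This was not particular to the members. In kept cells outside them, 12 of 22 were higher and 2 lower (0.63), where 10.4% of all genes were higher and 6.22% lower. H2-K1, a classical class I heavy chain, stood at 5261 CPM with LNP-cGAMP, 2676 with anti-PD-L1, 3674 with the combination and 2330 with PBS, and B2m, its light chain, was 1.55-fold (1.49 to 1.6) higher with LNP-cGAMP than with PBS. H2-Q7, a nonclassical class I gene, stood at 714, 174, 369 and 123 CPM and H2-Q6, its near neighbour, at 428, 65.7, 150 and 53.5 CPM. Outside the members, H2-Q7 was at 387, 60.5, 203 and 44.9 CPM in neutrophil-marker cells. In near-empty barcodes, which hold free RNA, it was at 565, 184, 307 and 190 CPM. The 2 lower genes, a share near that of all genes, were the chaperones Calr, at 666 against 1036 CPM, and Canx, at 117 against 191 CPM. With the combination, 3 of the 21 were higher than with anti-PD-L1 and 0 lower (2.25% and 0.989% of all genes), and these were H2-Q4, H2-Q6 and H2-Q7, at 2.12-fold (1.83 to 2.44), 2.28-fold (1.96 to 2.66) and 2.12-fold (1.93 to 2.33). H2-Q genes are near-identical copies, so reads could be split among them in the counting. The accessory genes of MHC class II, such as Ciita and H2-DMa, did not pass 1.5-fold in any of these contrasts: 0 of 10 measured were higher or lower over all members with LNP-cGAMP or anti-PD-L1 against PBS, or with the combination against anti-PD-L1.

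Some genes of sensing and costimulation were higher with LNP-cGAMP. Of 12 measured genes of innate sensing and the STING pathway, 7 were higher than with PBS and 0 lower (median log2 ratio 0.83), where 12.3% of all genes were higher. In kept cells outside the members, 8 of 13 were higher and 0 lower (0.70), where 10.4% of all genes were higher. Tmem173, which encodes STING, was itself at 154 against 131 CPM (1.17-fold, 0.988 to 1.39), and Myd88, the adaptor of most Toll-like receptors, at 296 against 149 CPM. In C1q-low cells Cd86, the ligand of CD28 on T cells, stood at 318 CPM with LNP-cGAMP, 145 with anti-PD-L1, 160 with the combination and 135 with PBS. Cd40, the receptor for T cell help, stood at 127, 58.1, 73.2 and 57.3 CPM there. Both were highest with LNP-cGAMP, 2.36-fold (1.94 to 2.87) and 2.22-fold (1.63 to 3.01) over PBS, and 5 of the 10 measured costimulatory and checkpoint genes were higher and 1 lower (0.79), where 11.8% of all genes were higher and 9.3% lower. Cd274, the gene of the antibody's target, stood at 242, 142, 150 and 90.6 CPM over all members, the highest with LNP-cGAMP and the lowest with PBS. Of 15 measured genes of the early NF-kB response in C1q-low cells, 9 were higher with LNP-cGAMP and 0 lower (0.69, against the same 11.8% and 9.3%), with Relb, the partner of the noncanonical pathway, at 208 against 92.7 CPM.

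The genes that mark mature, migrating dendritic cells were carried by few cells. In C1q-low cells 10 of 17 were higher with LNP-cGAMP than with PBS and 1 lower (median log2 ratio 0.64), where 11.8% of all genes were higher and 9.3% lower. With the combination, 8 were higher than with anti-PD-L1 and 2 lower (0.54), where 4.96% of all genes were higher and 3.92% lower. With anti-PD-L1, 0 were higher than with PBS and 11 lower (-0.77), where 2.57% were higher and 2.66% lower. Ccr7, the receptor that leads dendritic cells to lymph nodes, stood at 502, 176, 318 and 294 CPM, with UMIs in 8 of 43, 7 of 82, 7 of 52 and 11 of 86 cells. Fscn1, an actin-bundling protein of mature cells, stood at 141, 57.4, 205 and 211 CPM in 5, 4, 3 and 10 cells. So few cells carry these genes that a handful more or fewer decides the level. In the summed counts of cDC1, 1 of 14 was higher with LNP-cGAMP than with PBS and 11 were lower (-1.498). Over all genes there, 19.0% were higher and 17.5% lower. But 0 of the 8 cDC1 with LNP-cGAMP and only 1 of 23 with PBS were mature cells. Cell by cell, the summed list in cDC1 had a median of 6.05 UMIs per 10000 with LNP-cGAMP (highest 29.3) and 4.62 with PBS (highest 188).

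Cytokine and chemokine genes differed by group of cells. Il1rn, the antagonist of the interleukin-1 receptor, stood at 100.1, 24.997, 29.5 and 15.4 CPM in C1q-low cells, 6.52-fold (4.07 to 10.7) higher with LNP-cGAMP than with PBS. Il1b, the cytokine it opposes, stood at 821, 282, 318 and 612 CPM there, lowest in both libraries with anti-PD-L1. Ifnb1, encoding interferon beta, had no UMI in any member, which leaves up to 3.21, 0.785, 1.42 and 0.736 CPM by the intervals. Cxcl9, a ligand of CXCR3 on T cells, stood at 6.08, 72.1, 93.7 and 80.8 CPM over all members and was lowest with LNP-cGAMP, while Cxcl10, which binds the same receptor, stood at 255.5, 117, 89.8 and 208 CPM. In cDC1 alone Cxcl10 was at 172 CPM with LNP-cGAMP (4 of 8 cells) and at 19.2, 14.9 and 17.1 CPM in the other libraries.

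Ccl5, a chemokine for T cells and monocytes, stood at 1478, 150.4, 339 and 370 CPM over all members. In C1q-high cells it stood at 997, 22.5, 236 and 20.9 CPM, and in C1q-low cells at 2051, 313, 672 and 1008 CPM. The level was highest with LNP-cGAMP in both, and in C1q-high cells 12 of 22 had a UMI with LNP-cGAMP against 11 of 92 with PBS. Near-empty barcodes, which hold free RNA, carried Ccl5 at 1543, 220, 491 and 379 CPM, and neutrophil-marker cells had a UMI of it in 21.7%, 1.67%, 8.53% and 1.6%. With PBS, 660 of the 1852 UMIs came from 1 cell.

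Genes of the interferon-gamma response were in part higher with anti-PD-L1 than with PBS. Of 18 measured, 8 were at least 1.5-fold higher with anti-PD-L1 than with PBS and 1 lower (median log2 ratio 0.55), against 1.41% and 1.17% of all genes. In cDC1 13 of 18 were higher and 0 lower (0.70), with 4.79% and 4.49% of all genes, and in C1q-low cells 14 of 19 were higher and 0 lower (0.78), with 2.57% and 2.66%. In C1q-high cells 5 of 19 were higher and 2 lower (0.43), with 1.84% and 1.41%. In the kept cells outside the members 6 of 18 were higher and 0 lower (0.45), with 2.10% and 0.884%. On the other background, the combination against LNP-cGAMP, the summed list per cell had lower medians. They were 24.6 against 59.7 UMIs per 10000 in cDC1, 39.4 against 49.9 in C1q-low and 38.7 against 49.0 in C1q-high cells. With anti-PD-L1 these medians were 44.1, 54.7 and 49.0, and with PBS 22.7, 29.2 and 31.2. Gbp2, a guanylate-binding protein, stood at 737 CPM with LNP-cGAMP, 1197 with anti-PD-L1, 651 with the combination and 691 with PBS. Gbp2b, its close relative, stood at 66.0, 236, 168 and 85.6 CPM. Both were highest with anti-PD-L1. Iigp1, an immunity-related GTPase, stood at 424, 504, 356 and 271 CPM and Socs1, the feedback inhibitor of interferon receptors, at 209, 231, 160 and 120 CPM; each was above PBS in all 3 treated libraries.

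In C1q-low cells some of these genes were lower with the combination than with anti-PD-L1 alone. Of 19 measured, 7 were lower and 0 higher (median log2 ratio -0.42), where 3.92% of all genes were lower and 4.96% higher, with Gbp2 at 846 against 1443 CPM, Socs1 at 178 against 316 CPM and Cxcl9 at 23.1 against 93.9 CPM. In cDC1, 5 of 18 were lower and 0 higher (-0.40), where 6.18% of all genes were lower. Gbp2 there was at 400 CPM with the combination and 924 with anti-PD-L1. Among members called male alone (55 with anti-PD-L1, 171 with PBS), 4 of 17 measured genes were higher with anti-PD-L1 than with PBS and 1 lower (0.38), where the 204 and 201 members gave 8 of 18. The share of all genes was not counted for male-called members. Over all members, LNP-cGAMP against PBS gave 10 of 18 higher and 1 lower (0.65), where 12.3% of all genes were higher and 10.4% lower. Some genes stand in both this list and the type I list.

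**Figure D5:**
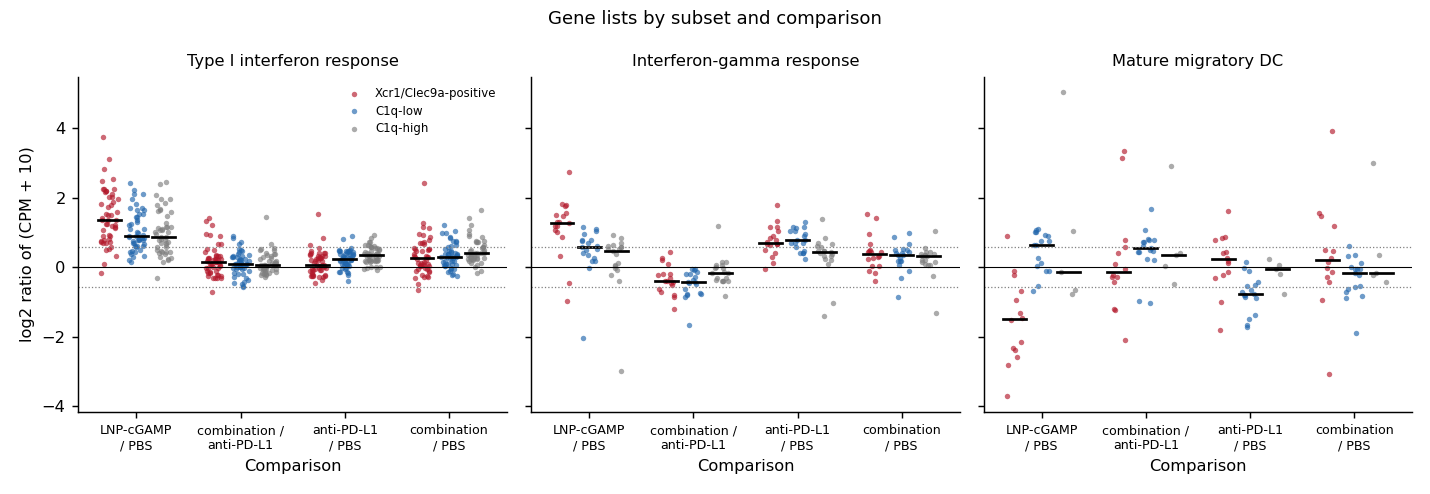
Log2 ratios (CPM + 10) of each measured gene of the type I interferon, interferon-gamma and mature dendritic cell lists, for cDC1 (Xcr1/Clec9a-positive), C1q-low and C1q-high cells, in 4 comparisons between libraries. Black bars are medians and dotted lines are 1.5-fold; the medians of the type I list lie above the upper line in the comparison of LNP-cGAMP with PBS, at 1.36, 0.89 and 0.87.

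Proliferation genes were lower with LNP-cGAMP. Of 14 measured, 0 were higher and 13 lower than with PBS (median log2 ratio -1.65), where 12.3% of all genes were higher and 10.4% lower. Most were lower in each group of cells, 16 of 18 in cDC1 (17.5% of all genes), 11 of 13 in C1q-low (9.3%) and 15 of 16 in C1q-high cells (13.7%). Cell by cell, the summed list in cDC1 had a median of 32.3 UMIs per 10000 with LNP-cGAMP (lowest 24.4, highest 48.4), 42.4 with anti-PD-L1 (12.7 to 181), 28.1 with the combination (9.79 to 109) and 34.0 with PBS (14.9 to 211). The medians with LNP-cGAMP and PBS were thus close in cDC1, and none of the 8 cells with LNP-cGAMP reached the highest cells of PBS. In C1q-low cells the medians were 25.1, 25.8, 25.5 and 30.2, and in C1q-high cells 12.7, 18.8, 15.0 and 19.1. Stmn1, which takes microtubules apart, stood at 8.69 against 175 CPM, which is 20.1-fold (10.9 to 42.1) lower, and Top2a, the topoisomerase of dividing cells, at 4.34 against 86.2 CPM. Cells with a UMI of Mki67, a marker of cycling cells, numbered 2 of 8, 2 of 43 and 1 of 22 with LNP-cGAMP (cDC1, C1q-low, C1q-high), against 7 of 23, 11 of 86 and 19 of 92 with PBS. Few cells carry the level, and in neutrophil-marker cells, which do not divide but are shallower, 0.305%, 0.669%, 1.34% and 0.368% had a UMI of Mki67 in the order of the libraries. In the kept cells outside the members, 2 of 13 genes were higher and 2 lower (-0.06), where 10.4% of all genes were higher and 6.22% lower. Over the members, the combination against anti-PD-L1 gave 1 higher and 0 lower, where 2.25% of all genes were higher and 0.989% lower. Anti-PD-L1 against PBS gave 0 higher and 2 lower, where 1.41% were higher and 1.17% lower.

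Genes named by size in both LNP-cGAMP contrasts included further ones outside these lists. Stap1, a docking protein, stood at 81.7 CPM with LNP-cGAMP, 11.7 with anti-PD-L1, 40.9 with the combination and 18.2 with PBS, and Ddit4, an inhibitor of mTOR signalling, at 71.3, 39.998, 94.8 and 26.1 CPM. Sirpb1a, an activating receptor of myeloid cells, stood at 82.5, 10.4, 33.9 and 12.8 CPM. All 3 were higher over all members with LNP-cGAMP than without it on both backgrounds, but in cDC1 alone the log2 ratio of Ddit4 was -0.96 for LNP-cGAMP against PBS. Hmox1, the heme-degrading enzyme, stood at 5241, 1009, 1955 and 1488 CPM in C1q-high cells, but its log2 ratio of LNP-cGAMP against PBS was -0.74 in cDC1. Lower on both were S100a4, a calcium-binding protein, at 512, 1048, 624 and 971 CPM, and Vcan, the proteoglycan versican of monocytes, at 60.8, 191, 88.3 and 128 CPM, but the log2 ratio of Vcan for the combination against anti-PD-L1 was 1.47 in cDC1 alone and 0.74 with Flt3 or Zbtb46 required.

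Saa3 and Ccl8 were highest with the combination. Saa3, an acute-phase protein, stood at 230 CPM with LNP-cGAMP, 171 with anti-PD-L1, 1336 with the combination and 236 with PBS, and in C1q-high cells at 367, 294, 2444 and 432 CPM. Near-empty barcodes held it at 5457, 1031, 3592 and 1046 CPM and 56.0%, 11.6%, 57.0% and 10.8% of neutrophil-marker cells had a UMI, so it was common in free RNA of both libraries with LNP-cGAMP. With free RNA subtracted, the log2 ratio of the combination to PBS was 2.45, as without. Ly6c2, a surface protein of inflammatory monocytes, stood at 548, 251, 424 and 60.1 CPM, higher in all treated libraries than with PBS, with UMIs in 56 of 73, 125 of 204, 91 of 132 and 75 of 201 members. The libraries stood in the same order outside the members. Ly6c2 was at 552, 277, 435 and 118 CPM in neutrophil-marker cells and at 751, 329, 496 and 226 CPM in near-empty barcodes. Ccl8, a monocyte chemokine, was 4.66-fold (4.20 to 5.17) higher with the combination than with anti-PD-L1.

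Single cells carried much of some large ratios. Slpi, a protease inhibitor, stood at 33.0, 426, 753 and 26.1 CPM and Alox15, a lipoxygenase of resident peritoneal and pleural macrophages, at 0, 80.8, 101 and 2.00 CPM. A single cell gave 64.7% of the Slpi UMIs with anti-PD-L1 and 44.9% with the combination, and 57.6% and 49.8% of the Alox15 UMIs. Without the highest cell of each library Slpi was still at 152 CPM with anti-PD-L1 and 427 with the combination, against 18.1 with PBS, and Alox15 at 34.6 and 51.3 CPM, against 1.62 with PBS. In the combination 127 of 134 Mgp UMIs, 129 of 140 Hspb1 UMIs and 127 of 138 Ccl22 UMIs lay in a single cell. With PBS, 219 of 256 UMIs of Cxcl3, a chemokine for neutrophils, lay in a single cell. Mrc1, the mannose receptor of macrophages, was spread over more cells: in C1q-high cells it stood at 51.3 CPM in 9 of 22 with LNP-cGAMP, 275 in 75 of 93 with anti-PD-L1, 178 in 44 of 60 with the combination and 382 in 81 of 92 with PBS. It was lower with LNP-cGAMP than with PBS by 2.68 on the log2 scale.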

How the data were processed

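Cells of pleural fluid, pooled from 3 mice per treatment, were run as 4 droplet libraries of 3′ RNA. The values are counts of UMIs per gene and barcode, which the authors deposited as unfiltered matrices, processed by Cell Ranger (version 3.0.2 per the file headers) on mm10 per the submitters' processing notes; the labels name 2 versions of the kit. Members were found by the rule given in the report, and the counts were summed per library and group of cells and divided by the summed UMIs (CPM). With 1 library per group no test was made. Intervals are exact (Poisson for CPM, Clopper-Pearson for shares, conditional binomial for folds), at 95%. Genes counted as higher or lower differed at least 1.5-fold on CPM + 10, among genes that reached a total of 20 UMIs and, in some library, 50 CPM.

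Members, lists and the C1q limit were chosen with earlier results of these data known. Genes were named by size among measured genes moving the same way in paired contrasts, leaving out ribosomal, mitochondrial, sex-linked and rule genes; other genes in the text are list members, markers or genes that those sentences turn on, some picked after their values were seen. Of 472 list entries, 458 were matched by symbol. Neutrophil-marker cells had at least 100 UMIs per 10000 of neutrophil genes, and free RNA was read from barcodes with 10 to 100 UMIs. Alternatives covered UMI, MHC class II, mitochondrial and C1q limits, thinning, scaling (edgeR 4.0.16, DESeq2 1.42.0, used for size factors only), pseudocounts, free RNA and male-called members. The counting steps were tested on simulated counts. Python 3.11.15, numpy 2.4.6, scipy 1.17.1, pandas 2.3.3 and R 4.3.3 were used.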

Additional observations from a re-analysis of the deposited data

Results flagged for a closer look

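Marco, a scavenger receptor of macrophages, differed in opposite directions in the contrasts of LNP-cGAMP on PBS and on anti-PD-L1. Its log2 ratio of LNP-cGAMP to PBS was -3.34 (0.869 against 99.8 CPM), and that of the combination to anti-PD-L1 was 0.77 (20.04 against 7.66 CPM). It lay in 1 of 73, 11 of 204, 7 of 132 and 21 of 201 members with LNP-cGAMP, anti-PD-L1, the combination and PBS. Hist1h2ap, a histone gene, likewise had a log2 ratio of -1.78 for LNP-cGAMP against PBS (41.7 against 167 CPM) and of 1.80 for the combination against anti-PD-L1 (124 against 28.3 CPM). The difference between the contrasts was not tested for either gene.

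Among kept cells that were not members, Xcr1 or Clec9a was found in 7 of 3757 with LNP-cGAMP, 41 of 3175 with anti-PD-L1 (1.29%), 13 of 3416 with the combination and 13 of 2620 with PBS (0.496%). The anti-PD-L1 share stood above that of PBS. Of these 74 cells 65 had a single UMI, and their median depth was 43198 UMIs with anti-PD-L1 and 55943 with PBS.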

How the results depend on the processing

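No paired analysis was possible because each treatment has 1 library and the labels give no number that pairs libraries. Of the alternative values of shares and counts, 185 kept their size and 54 moved; of those for single genes 1207 kept their size, 367 moved and 28 changed sign. Leaving out the mature cells or the cell with mesothelial genes was added after the data were seen. Values follow the order LNP-cGAMP, anti-PD-L1, combination, PBS. The member share of kept cells became 2.77%, 9.91%, 5.75% and 8.47% with an MHC class II minimum of 40 per 10000, 1.49%, 3.94%, 2.71% and 5.42% with 100, 1.33%, 3.17%, 1.89% and 3.83% without C1q above 10, 0.627%, 1.33%, 1.07% and 2.38% where Flt3 or Zbtb46 was required, and 2.57%, 8.22%, 4.47% and 10.02% without neutrophil-marker cells in the denominator; a UMI minimum of 2000 gave 8.22% with PBS. LNP-cGAMP stayed lowest and the combination below anti-PD-L1 in each of these. The cDC1 share of members became 2.74% (LNP-cGAMP) and 5.97% (PBS) with at least 2 UMIs required, 20.3% (anti-PD-L1) with the minimum of 100, 23.4% (anti-PD-L1) and 20.4% (PBS) without C1q above 10, 42.2%, 42.1% and 28.4% (anti-PD-L1, combination, PBS) where Flt3 or Zbtb46 was required, and 9.00%, 9.38% and 5.03% (the same 3) after thinning to 3000 UMIs.

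Type I genes higher with the combination than with anti-PD-L1 numbered 4 without C1q above 10, 5 with Flt3 or Zbtb46 required, 6 after thinning, 1 with a pseudocount of 20 CPM and 8 in cDC1 alone. Those higher with anti-PD-L1 than with PBS numbered 4 after thinning, 1 with a pseudocount of 20 CPM, 5 with either TMM or median-of-ratios scaling and with free RNA subtracted, 4 in the rest alone and 1 in male-called members. Interferon-gamma genes higher with anti-PD-L1 numbered 13 without C1q above 10, after thinning and in cDC1 alone, 5 with Flt3 or Zbtb46 required and 4 in male-called members. Proliferation genes lower with LNP-cGAMP numbered 21 under both looser filters, 10 UMIs and 20 CPM or none, where 22 were measured. Genes lower in cDC1 than in the rest numbered 128 without C1q above 10, 128 with Flt3 or Zbtb46 required and 343 with 2 UMIs required.

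These log2 ratios changed sign. For LNP-cGAMP against PBS they were Ddit4 -0.96 and Hmox1 -0.74 in cDC1 alone, and Hmox1 -0.12 and Cxcl2 0.17 with Flt3 or Zbtb46 required. For the combination against anti-PD-L1 they were Ccl5 -1.25, Cxcl2 0.29 and Vcan 1.47 in cDC1 alone, Cxcl2 1.80 and Vcan 0.74 with Flt3 or Zbtb46 required, and Cxcl2 0.65 with the minimum of 100. For anti-PD-L1 against PBS they were Slpi -0.44 and F10 -0.085 in male-called members, Fabp7 -0.094 and Cxcl10 1.63 with Flt3 or Zbtb46 required, Cxcl10 0.40 without C1q above 10, and Ccl5 0.83 and Cxcl10 0.10 in cDC1 alone. For the combination against LNP-cGAMP they were Gbp2b -0.081 and Fabp7 -0.035 without C1q above 10, Selm -0.041 with the minimum of 40 and Cxcl3 0.61 with that of 100. For the combination against PBS they were Mgp -0.048 without C1q above 10, Marco 0.56 with the minimum of 100, Marco 1.27 and Cxcl2 1.75 with Flt3 or Zbtb46 required, and Cxcl3 0.46 and Cxcl2 0.64 in cDC1 alone. The median ratio of Ccl12 between cDC1 and the rest was 0.11 with Flt3 or Zbtb46 required. The causes were not tested. Male-called members of the combination numbered 13, too few for that alternative, and depth limits the 8 cDC1 with LNP-cGAMP most.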
